A study of Brassica rapa subsp. pekinensis with 6 samples.

Results

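The miR824 family of Chinese cabbage (Brassica rapa) comprised every listed miRNA named miR824 or MIR824, whatever its species prefix or suffix. There were 7 such rows of 1159, with 6 names, and they held 5 distinct mature sequences of 889. The rows of each sequence were added, so that each sequence was counted once. Small RNA had been sequenced from germinated seeds of the double haploid line FT in 6 libraries, 3 vernalized (Ver) and 3 non-vernalized (Nor). Ver seeds were kept at 4 °C in the dark for 25 days after germination, and Nor seeds stood at room temperature for about 48 h, also in the dark, until both had reached an equal length. A dish of pooled seeds was the biological repetition, and whether Ver and Nor libraries of 1 number began in 1 dish was not stated. The p-values measure the spread between these libraries. Cold and the length of the treatment differ together between the groups and cannot be told apart. No miRNA served as a marker of tissue, so the labelled tissue could not be checked in this table.

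Plant miRNAs are cut out of hairpin precursors by the Dicer-like enzyme DCL1. One strand of the resulting duplex is loaded into an ARGONAUTE protein and guides the cutting of mRNAs that pair with it along nearly its whole length. In Arabidopsis, miR824 cuts the mRNA of AGAMOUS-LIKE16 (AGL16), which encodes a MADS-box transcription factor. There, AGL16 acts in the divisions that add stomata to the leaf surface, and it delays flowering together with the floral repressors FLC, which vernalization silences, and SVP. miR824 is known from Arabidopsis and its relatives, and its precursor is unusually long. The mRNA of AGL16 was not measured in these libraries. The study also sequenced mRNA of Nor and Ver seeds in other libraries, which were not used here.

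The 5 sequences are shown because they differ in arm, in end and in the locus that can make them. They are given as DNA letters, 5′ to 3′, with the seed (bases 2 to 8) in capitals.
bra-miR824: tAGACCATttgtgagaaggga
bra-MIR824-p3: cCTTCTCAtcgatggtctaga
ath-miR824-3p_L+3: tTCCCTTCtcatcgatggtctaga
ath-MIR824-p5, also named ath-MIR824-p3_1: gTTGTCTCtcatgtctagacc
ath-MIR824-p3_2: tCTCATGTctagaccatttgt
The first is the known miRNA from the 5′ arm of the hairpin, and bra-MIR824-p3 is its partner from the 3′ arm, whose name marks it in the deposited table as newly found next to a known miRNA. The 24-nt ath-miR824-3p_L+3 is the 3′-arm sequence with 3 more bases at its 5′ end. The last 2 sequences began 15 and 9 bases upstream of bra-miR824 and overlapped it by 6 and 12 bases. The 5 seeds all differed, and no sequence outside the family carried any of them. No other form starting fewer than 9 bases from bra-miR824 was listed in the family. The header describes the raw value as the reads of an isoform at 1 arm, and whether shifted reads were merged into it was not stated.

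The hairpin of bra-miR824 lay on chromosome A03 (A03:26814851-26815482, plus strand, B. rapa v3.0). It was 632 bases long and was the longest of the 928 listed precursor positions, whose median length was 131 bases. In the RefSeq annotation of assembly CAAS_Brap_v3.01 exactly this interval is the miRNA gene MIR824. The mature sequence occupied A03:26814872-26814892 and its partner A03:26815438-26815458, with 545 bases between them. In the structure listed by the authors 17 base pairs joined the arms, 1 of them a G:U pair. Positions 9, 10, 20 and 21 of bra-miR824 had no partner inside bra-MIR824-p3. Positions 10, 11, 20 and 21 of bra-MIR824-p3 had none inside bra-miR824. As a duplex of these 2 sequences alone, each strand would thus end in 2 bases without a partner at its 3′ side. A Dicer-like enzyme leaves that form. Whether these end bases paired with bases outside the 2 sequences in the whole hairpin was not examined.

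A further pair of loci held the same mature sequences. On A01 the bra-miR824 sequence was found at A01:8051378-8051398 and that of bra-MIR824-p3 at A01:8051870-8051890, both on the plus strand and 471 bases apart. On A08 they were at A08:15643268-15643288 and A08:15642884-15642904, both on the minus strand and 363 bases apart. The authors listed the arms of these loci as separate short precursors of 50 to 100 bases, and no RefSeq gene overlapped any of them. Reads of the 2 main sequences can therefore come from any of the 3 loci, although they were listed under A03 alone. The bases just before the mature sequences separate A03 from the others, and the windows are shown with the mature sequence in capitals.
A03, 5′ arm: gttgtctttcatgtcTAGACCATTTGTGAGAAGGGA
A01 and A08, 5′ arm: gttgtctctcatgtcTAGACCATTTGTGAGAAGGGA
A03, 3′ arm: gtcCCTTCTCATCGATGGTCTAGA
A01 and A08, 3′ arm: ttcCCTTCTCATCGATGGTCTAGA
The 5′-arm windows differed by T8C and the 3′-arm windows by G1T, with the A03 base first and positions counted from 1 at the 5′ end of the window. The 24-nt form and both upstream forms did not occur in the A03 hairpin and matched it best with 1 mismatch, so they are the listed sequences that A01 and A08 can make and A03 cannot.

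**Figure D1:**
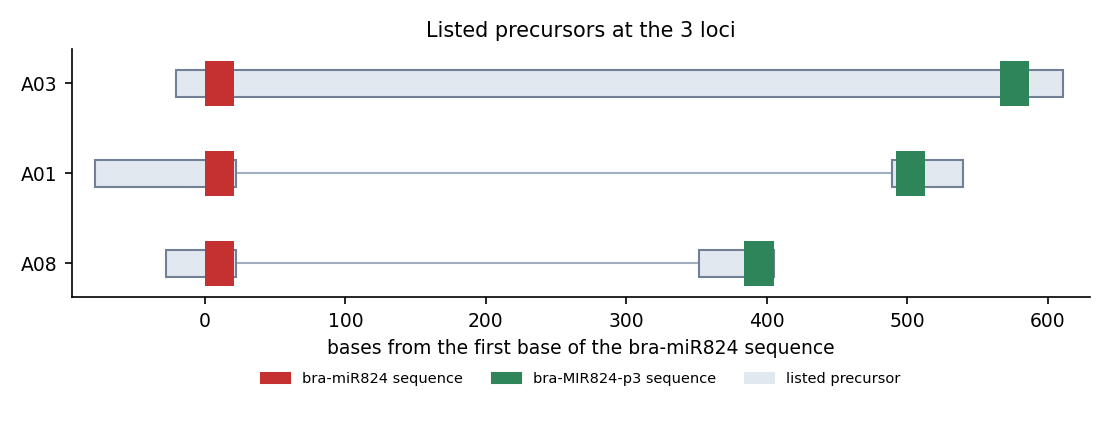
Listed precursors (grey boxes) at the loci on A03, A01 and A08, drawn to scale against the distance in bases from the first base of the bra-miR824 sequence (red), with the bra-MIR824-p3 sequence in green. The arms were 545 bases apart on A03, 471 on A01 and 363 on A08, and only A03 had 1 precursor over both arms.

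The comparison of Ver with Nor asked whether the family changed with vernalization. All 3 members that passed the filter on low counts were higher in Ver, and bra-miR824, the mature strand that targets AGL16 in Arabidopsis, made up 91.2% to 93.5% of the family's reads over the 6 libraries. The 2 upstream forms did not pass the filter. In the whole deposited set, 405 sequences were tested and 247 were called at an adjusted p under 0.05 (61.0%), with 28.1% higher and 32.8% lower in Ver. This split moved with the scaling, and 131 of the 255 sequences called with the factors of the authors were higher, against 114 of 247 here. With only 3 tested members, this count is not set apart from that background. The table held 589061 to 771529 reads of listed sequences per Ver library and 749852 to 968483 per Nor library. Levels are RPM, reads scaled to a common table total with TMM factors, and are thus relative to all listed reads. In pooled seeds, more cells that make a miRNA and more of it per cell cannot be told apart.

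The bra-miR824 sequence was counted 56294, 43222 and 45586 times in Ver 1 to 3, and 39858, 31085 and 30959 times in Nor 1 to 3. This was 72158, 71901 and 80143 RPM in Ver 1 to 3, against 39122, 42166 and 41731 RPM in Nor 1 to 3. The groups did not overlap, and the lowest Ver level exceeded the highest Nor level by more than the spread within either group. How many of all tested sequences lay apart in this way was not counted, here or for the members below. Of the tested sequences 61.0% were called in either direction. The means were 74734 ± 4686 RPM in Ver and 41007 ± 1646 RPM in Nor (SD, n = 3 each). The log2 fold change was 0.87 (SE 0.0606), or 1.82-fold, with an adjusted p of 1.83e-06 (edgeR quasi-likelihood test, Benjamini-Hochberg over all 405 sequences). It lay above the log2 fold change of 76.8% of the tested sequences, whose median was -0.19. As a share of all listed reads bra-miR824 held 7.30%, 7.34% and 7.61% in Ver 1 to 3, and 4.12%, 4.14% and 4.13% in Nor 1 to 3. The 95% Wilson intervals, which cover counting error only, reached no lower than 7.24% in any Ver library and no higher than 4.18% in any Nor library. By reads it was the fourth most abundant sequence of each Ver library and the fifth of each Nor library. With TMM factors the rise did not reach the log2 fold change of 1 that the study required of its differentially expressed miRNAs. With the factors of the authors in their place the rise was 1.003, just over that threshold. In the fit with TMM factors, 43.2% of the tested sequences passed the threshold together with an unadjusted edgeR p of at most 0.05. That share covers the sequences past the filter used here and is not the share that the study found.

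**Figure D2:**
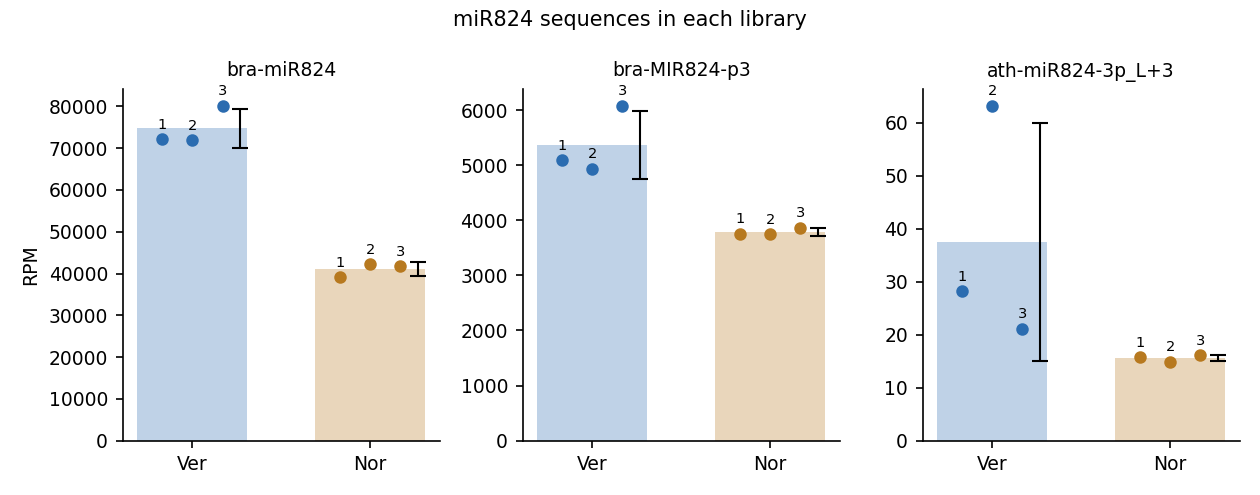
RPM of the 3 tested miR824 sequences in Ver (left) and Nor (right); points are libraries with their replicate number, bars the means and whiskers the SD. For bra-miR824 and bra-MIR824-p3 the Ver libraries lay above the Nor libraries with a gap, and for ath-miR824-3p_L+3 the library Ver 2, at 63.2 RPM, stood far above the others.

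The partner strand bra-MIR824-p3, which is usually discarded when the mature strand is loaded, was less abundant. It had 5093, 4939 and 6079 RPM in Ver 1 to 3, against 3753, 3743 and 3863 RPM in Nor 1 to 3. The Ver libraries were again all above the Nor libraries. Means were 5370 ± 619 RPM in Ver and 3786 ± 66.7 RPM in Nor (SD, n = 3 each). On the log2 scale the difference was 0.50 with an SE of 0.0876, and the edgeR adjusted p was 7.92e-04. It ranked 23 to 29 among the sequences of the Ver libraries and 31 to 32 among those of the Nor libraries.

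**Figure D3:**
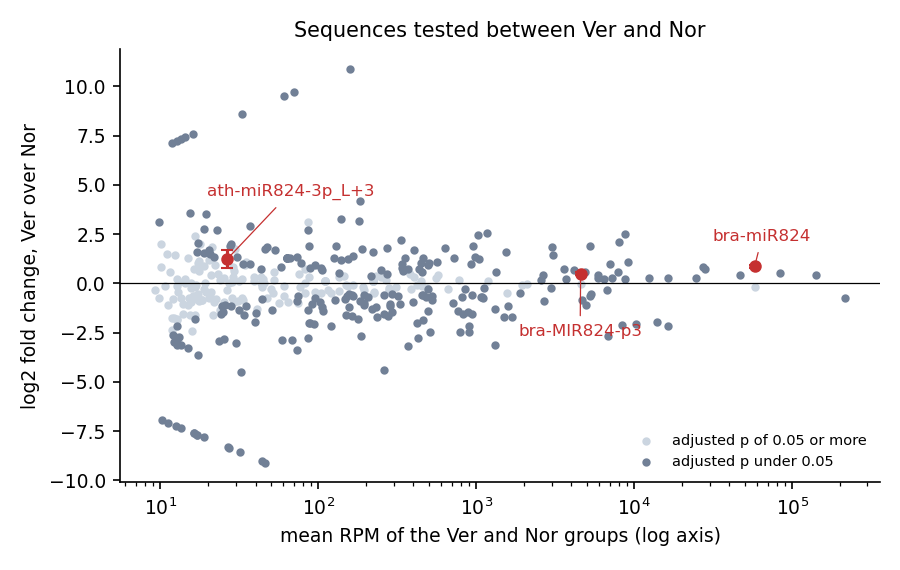
Log2 fold change (Ver over Nor) of the 405 tested sequences against their mean RPM on a log axis, with the 3 tested miR824 sequences in red with their SE and darker grey for an adjusted p under 0.05. The bra-miR824 point lies among the most abundant sequences at 0.87, bra-MIR824-p3 lies at 0.50 and the rare ath-miR824-3p_L+3 lies at 1.25 with the widest error bar of the red points.

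In these libraries the balance between the strands of the duplex also lay apart by group. There were 14.2, 14.6 and 13.2 reads of bra-miR824 per read of bra-MIR824-p3 in Ver 1 to 3, and 10.4, 11.3 and 10.8 in Nor 1 to 3. Together the 3′-arm sequences held 6.63%, 6.50% and 7.07% of the family reads in Ver 1 to 3, against 8.79%, 8.18% and 8.51% in Nor 1 to 3. The 95% Wilson intervals cover counting error only. None of a Ver library overlapped one of a Nor library, the nearest bounds being 7.30% in Ver 3 and 7.89% in Nor 2. The mean share was 6.73% ± 0.299 in Ver and 8.49% ± 0.302 in Nor (SD, n = 3 each), a difference of -1.76 percentage points. The two-sided exact permutation p was 0.1, the smallest that 3 against 3 libraries allow, and 0.2 after Benjamini-Hochberg adjustment over 4 shares. The share of bra-miR824 itself was the counterpart, with 93.3% ± 0.308 in Ver and 91.5% ± 0.311 in Nor (SD, n = 3 each), and its exact permutation test again gave p = 0.1. Such a shift was common in the table. Of 86 pairs of tested sequences from opposite arms of 1 precursor, some of which share a sequence, the share of the rarer partner did not overlap between the groups in 60 (69.8%), and lay lower in all Ver libraries than in any Nor library in 29 (33.7%). These shares do not depend on how the libraries were scaled.

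**Figure D4:**
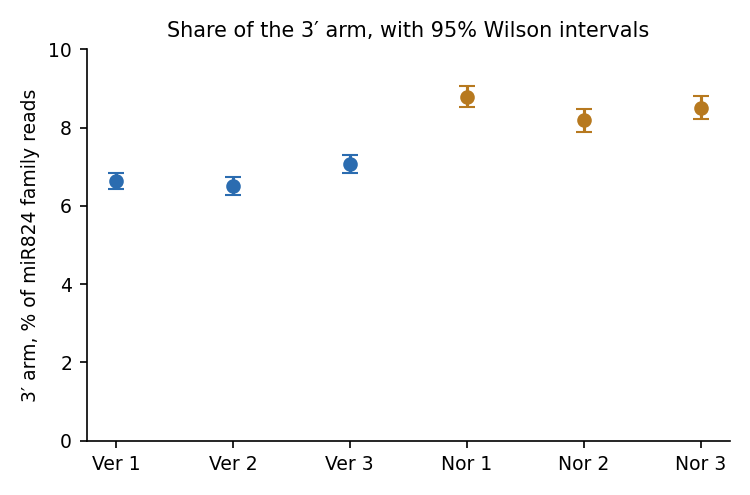
Percent of miR824 family reads from the 3′ arm in each library, with 95% Wilson intervals. The 3 Ver libraries lay between 6.50% and 7.07% and the 3 Nor libraries between 8.18% and 8.79%.

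The 24-nt ath-miR824-3p_L+3, which A01 and A08 can make and A03 cannot, was rare. It had 22, 38 and 12 reads in Ver 1 to 3, and 16, 11 and 12 reads in Nor 1 to 3, summed over its rows for A01 and A08. On the RPM scale this was 28.2, 63.2 and 21.1 in Ver 1 to 3, against 15.7, 14.9 and 16.2 in Nor 1 to 3. The groups did not overlap in RPM, but Ver 3 and Nor 3 had the same number of reads and Ver 2 stood apart. The fitted difference was 1.25 on the log2 scale with an SE of 0.468, and the edgeR adjusted p was 0.0425. The call was lost without Ver 2 (log2 fold change 0.74, edgeR adjusted p = 0.154) and also without Nor 1, Nor 2 or Nor 3, where the log2 fold change was 1.34, 1.27 and 1.31 (edgeR adjusted p = 0.101, 0.117 and 0.0931). As a share of the 3′-arm reads it was 0.551%, 1.26% and 0.346% in Ver 1 to 3, and 0.417%, 0.397% and 0.417% in Nor 1 to 3. These shares, examined after the data were seen, overlapped between the groups (two-sided exact permutation p = 0.4).

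The upstream forms were near the lower limit of the table. ath-MIR824-p5 had 5 reads in Ver 3 and in Nor 1 and was listed at 0 in the other 4 libraries. ath-MIR824-p3_2 had 2.5 reads in the same 2 libraries. The value was 2.5 on each of the 3 rows of these forms, so the rows do not stand as separate measurements. Among sequences with a single row, 2407 values were above 0, of which 233 were exactly 5 and 145 were below 5, so a listed 0 was taken to allow up to 5 reads. No fold was computed for these forms. They held 0.0164% of the 5′-arm reads in Ver 3 and 0.0188% in Nor 1, and the mean shares did not differ detectably at this depth (two-sided exact permutation p = 1).

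The sum over the 5 sequences followed bra-miR824. It was 77883, 77423 and 86841 RPM in Ver 1 to 3, against 42494, 45675 and 45322 RPM in Nor 1 to 3. The group means were 80716 ± 5310 RPM in Ver and 44497 ± 1743 RPM in Nor (SD, n = 3 each). When the sum took the place of its members, edgeR gave a log2 difference of 0.86 with an SE of 0.0615 and an adjusted p of 2.23e-06.

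**Figure D5:**
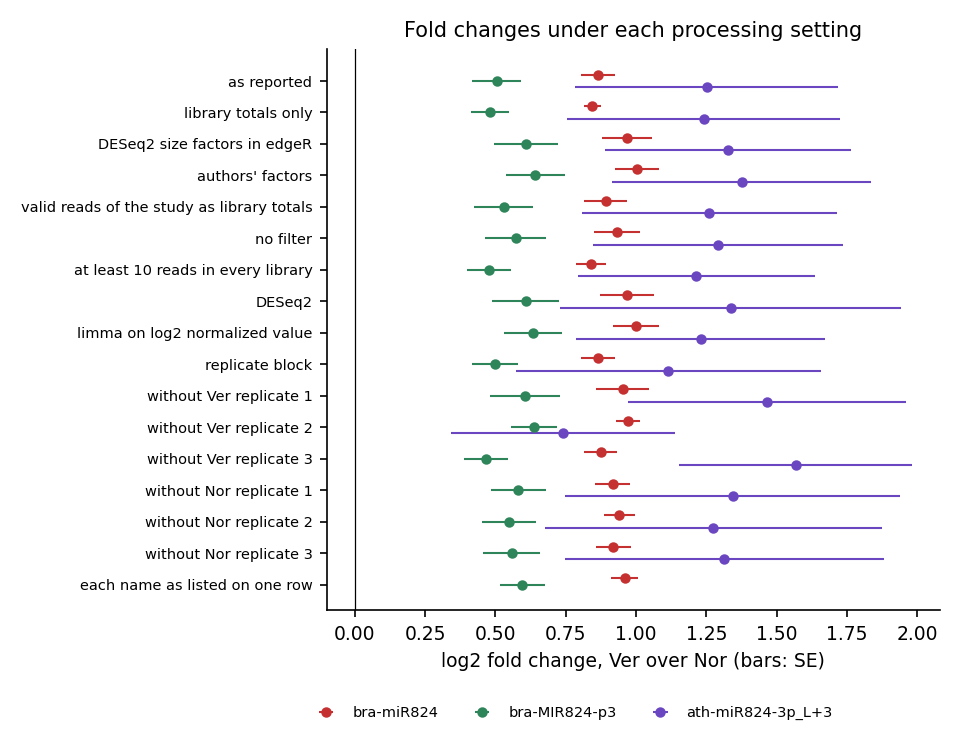
Log2 fold change (Ver over Nor, with SE) of the tested miR824 sequences under each processing setting; ath-miR824-3p_L+3 was not tested where each name was taken as listed on 1 row. Values of bra-miR824 stayed between 0.84 and 1.003, those of bra-MIR824-p3 between 0.47 and 0.64, and those of ath-miR824-3p_L+3 between 0.74 and 1.57.

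The sequences with the pattern most like that of bra-miR824 were taken by Pearson's r of log2 RPM over the 6 libraries, among 196 sequences outside the family with a mean of at least 100 RPM. They were bra-MIR167d-p3 (r = 0.998), ath-miR319a_L+1R-1 (0.997), bra-miR168b-5p_1ss21CA (0.997), bra-miR390-5p (0.996) and bra-miR168b-3p (0.996). Their log2 fold changes ranged from 0.71 to 1.86. The 6 libraries form 2 groups, so r mainly follows the step between them, and 61 of the 196 sequences had an r over 0.9. bra-MIR824-p3, from the same hairpin, had an r of 0.968.

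For a wider view, miRNA families with known roles in flowering time or the juvenile to adult transition were counted in the same test. The list held miR156, miR157, miR159, miR169, miR172, miR319, miR390, miR399 and miR1885. Sequences of both arms and names with prefixes of other species were all counted, and which of them act on targets was not tested. Of its 108 sequences 68 were tested, of which 28 rose, 20 fell and 20 did not pass, so that 70.6% were called against 61.0% of all sequences. The median log2 fold change was 0.13, against -0.19 over all sequences. The most abundant member was bra-MIR1885b-p3, with 98278 ± 7805 RPM in Ver and 68718 ± 2842 RPM in Nor (SD, n = 3 each), and a log2 difference of 0.52 with an SE of 0.0655 (edgeR adjusted p = 1.02e-04). Next came bra-miR156a-5p of the family that delays the adult phase, with 54653 ± 6714 RPM in Ver and 61510 ± 4433 RPM in Nor (SD, n = 3 each, log2 fold change -0.17, edgeR adjusted p = 0.126). Of the 4 tested sequences of miR172, which promotes flowering in Arabidopsis, 3 rose, or 2 when library totals alone were used. The 3 included forms named from another species with 2 substitutions, at means of 20.9 and 22.4 RPM in Nor. Of 8 tested miR159 sequences 7 rose (8 with the DESeq2 size factors or the factors of the authors). Of 15 tested miR169 sequences 11 fell, or 10 with 1 higher under the DESeq2, authors or valid-read scalings. Other families went both ways. Of 20 tested miR156 sequences 8 rose and 3 fell (7 rose with the valid reads, 4 fell with library totals alone), and of 7 tested miR390 sequences 3 rose and 2 fell. Of 10 tested miR319 sequences 5 rose and 4 fell, or 1 or 2 fell under the DESeq2, authors or valid-read scalings. Both tested miR1885 sequences rose, and the single tested sequences of miR157 and miR399 did not pass. The shares over all sequences were 28.1% higher and 32.8% lower.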

How the data were processed

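Small RNA libraries of 3 Ver and 3 Nor samples were compared, with groups and replicate numbers from the labels. The authors removed adapters, low-complexity reads and common RNA families, and matched the remaining sequences by BLAST to miRBase 21.0 and the B. rapa v3.0 genome (BLAST version and settings not given in the sources used here). The deposited raw values are estimated counts, which the authors appear to have divided over the rows of a sequence. After the rows were added, 88.7% of the nonzero values were whole within 0.02 reads, and all were rounded. The deposited normalized values are a signal, the raw value times 1 factor per library (0.847, 1.097 and 1.222 for Ver 1 to 3, and 0.606, 0.839 and 0.808 for Nor 1 to 3), whose choice was not stated. No value column belonged to another sample.

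All 889 sequences entered edgeR 4.0.16 in R 4.3.3 (quasi-likelihood test, TMM factors of 0.949 to 1.052, default filter on low counts, group as the only term, Benjamini-Hochberg, adjusted p under 0.05). The biological coefficient of variation was 0.146. The fit was tested on simulated data. Shares were compared by exact permutation tests (scipy 1.17.1). Molecular identifiers are not mentioned, so reads may repeat a molecule and intervals cover counting error only. Genome positions are those of the authors, and 71 of 84 listed B. rapa precursor positions were identical in RefSeq assembly CAAS_Brap_v3.01. Alternatives were other scalings, including the valid reads per library given by the study, other filters, DESeq2 1.42.0, limma 3.58.1 on log2 of the normalized value plus 0.1, a replicate block, names as listed, and each library left out. All members were named. Beside them the text names the 5 sequences closest to bra-miR824 by r and the 2 most abundant of the flowering list. Members and lists were chosen with earlier results of these data known. Target sites in AGL16 were not analysed here, since no transcript sequences were used.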

Additional observations from a re-analysis of the deposited data

How the results depend on the processing

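bra-miR824, bra-MIR824-p3 and the family sum were higher in Ver at an adjusted p under 0.05 (edgeR, DESeq2 or limma) in each alternative that tested them, apart from the stricter rule of the study. That rule, an absolute log2 change over 1 and an unadjusted p of at most 0.05, was applied to the fit with TMM factors. There bra-miR824 (0.87), bra-MIR824-p3 (0.50) and the family sum (0.86) did not pass. The count was 1 member instead of 3, the rare 24-nt form, and 29 sequences of the flowering list instead of 48. The log2 fold change of bra-miR824 was 1.003 with the factors of the authors (unadjusted edgeR p = 3.40e-07) and 0.999 in limma on their normalized values. These values lie just over and just under the limit of 1, so whether bra-miR824 met the rule depended on the processing. The family sum ranged from 0.79 to 0.98 over all alternatives. The median log2 fold change of all sequences was -0.06 with the factors of the authors, against -0.19 with TMM factors, a shift that applies to every sequence. The 24-nt form kept a log2 fold change of 1.24 with library totals only (edgeR adjusted p = 0.0506), 1.29 with no filter (0.0655), 1.23 in limma (0.0549) and 1.11 in the replicate block (0.131), but was not called there. With each library left out in turn, the end variant share differed by -0.00627 to 0.00548 percentage points, of changing sign around -7.88e-04, and rested on 7.5 reads in each of 2 libraries.

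Whether replicate numbers pair the libraries was not settled. Deviations from the group means correlated at 0.133, -0.0602 and 0.0310 for numbers 1 to 3. Libraries of different numbers correlated at -0.111 to 0.0757, and 2 of 6 libraries correlated best with their own number. With 3 libraries per group such correlations can neither show nor exclude a pairing. With the replicate block, bra-miR824 had a log2 fold change of 0.86 (edgeR adjusted p = 1.20e-04), bra-MIR824-p3 of 0.50, and 204 sequences were called instead of 247. Depth limited the 24-nt form, with at most 38 reads, and the upstream forms, with at most 5.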

Other observations

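The short precursors listed for A01 and A08 had predicted free energies of -25.4 and -14.1 kcal/mol on A01 (5′ and 3′ arm) and of -8.20 and -13.5 kcal/mol on A08, against -193.8 kcal/mol for the A03 hairpin. The header of the table names a limit of -15 kcal/mol and a minimum length of 50 bases for hairpins. A fold of the whole A01 or A08 locus over both arms was not listed. The same 5′-arm sequence was named p5 on A08 and p3_1 on A01, so the arm in a name follows the short precursor and not the position relative to bra-miR824.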
